A study of Mus musculus with 7 samples.

Results

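The open chromatin of Rescue preB cells was compared with that of WT preB cells. Members were the ATAC-seq peaks of both lists, 76465 in WT preB and 84453 in Rescue preB, which are 160918 of the 647973 peaks in the 7 libraries. A peak was unshared when it overlapped the other list by less than 1 bp. By this rule 6132 peaks were WT-only and 15100 were Rescue-only. The stage of each library was taken from its title, and each group had 1 library, so no test was possible and the spread between mice is unknown.

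WT preB cells carried floxed Erg alleles (Ergfl/fl) and no Cre. Rescue preB cells (Rag1CreT/+;Ergdelta/delta;IgHVH10tar/+ in the paper) had Erg deleted by a Cre driven from the Rag1 gene, which acts in lymphoid progenitors and their offspring. They also carried a heavy chain allele knocked in as an already rearranged variable region, IgHVH10tar. By the paper's genotype the other heavy chain allele was without the knock-in. The WT library had neither Cre nor the knock-in, so the deletion, the Cre and the knocked-in heavy chain cannot be told apart. The Erg KO pre-proB library, used for look-ups only, came from Rag1CreT/+;Ergdelta/delta cells, with the deletion and the Cre but without the knock-in. It and the Rescue libraries are called Erg-deficient below. The number of mice behind each library is not given in the study's text or labels. The label of the Rescue library was not uniform: its source name gave pre-proB, and the Rescue library with preB as source name was titled proB. Values under that other reading are given for the main counts. Patterns over the other libraries, runs and gene excesses were described by title only.

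Erg is an ETS-family transcription factor of blood stem cells and lymphoid progenitors. PreB cells have passed the pre-B-cell receptor (pre-BCR) checkpoint, in which a rearranged heavy chain pairs with the surrogate light chain made by Igll1, Vpreb1 and Vpreb2. They then stop rearranging the heavy chain locus (Igh) and open the kappa light chain locus (Igk) for recombination by the Rag enzymes. ATAC-seq reads out DNA that a transposase can reach, and peaks mark promoters and distal regulatory elements in that state.

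Depth was known only from the lists. The background pileup, the mean number of fragments over any base as recovered from the deposited folds, was 3.56 in WT preB and 3.85 in Rescue preB, a ratio of 1.08. The lowest summit pileup of a called peak was 11 in both lists. The peaks covered 53.3 Mb in WT preB and 59.7 Mb in Rescue preB. All 10 preB stage markers, Il2ra, Cd2, Blnk and Cd24a among them, had a promoter peak in both lists. Erg held 33 peaks within the gene in WT preB and 34 in Rescue preB, and no peak of either list overlapped the floxed exon, so the peaks did not check the deletion.

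The 120 bases around the summit are shown for 10 unshared peaks on which the results below turn, from the + strand of GRCm38.p6. Capitals mark every match, on either strand, to the 15 short patterns searched, which are given with their counts. The peak at Slit3 (chr11:35403664-35403783, intron) was the highest-scoring Rescue-only peak, and that at Myo18b (chr5:112884872-112884991, intron) was the next. DQ52 (chr12:113430522-113430641) is the summit over Ighd4-1, the diversity segment nearest to the joining segments. The Mecom window (chr3:30413158-30413277, intron) is the highest-scoring Rescue-only peak of the stem and progenitor genes. The PU.1 window (chr9:47734167-47734286, intron of Cadm1) is the highest-scoring Rescue-only distal peak off the exons with that pattern within it. Tmem132e (chr11:82410563-82410682, intron) and Xylt1 (chr7:117099132-117099251, 281787 bp from the start of the gene) come from the longest WT-only runs whose sequence can be shown. The EBF1 (chr9:76332260-76332379, 8464 bp from Hcrtr2), TCF (chr15:27758779-27758898, intron of Trio) and CAGGTG (chr11:82252471-82252590, intron annotated to Ccl1) windows are the highest-scoring WT-only distal peaks off the exons with those patterns within them. For these windows and the PU.1 window, chromosomes 18 and Y were left out of the choice.
Slit3: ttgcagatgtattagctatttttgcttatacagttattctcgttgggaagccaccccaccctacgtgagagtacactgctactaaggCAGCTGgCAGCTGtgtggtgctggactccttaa
Myo18b: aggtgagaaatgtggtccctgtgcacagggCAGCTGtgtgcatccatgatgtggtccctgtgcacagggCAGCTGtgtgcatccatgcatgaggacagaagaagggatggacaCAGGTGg
DQ52: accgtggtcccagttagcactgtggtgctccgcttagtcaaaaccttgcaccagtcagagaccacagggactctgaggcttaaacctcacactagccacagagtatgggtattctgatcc
Mecom: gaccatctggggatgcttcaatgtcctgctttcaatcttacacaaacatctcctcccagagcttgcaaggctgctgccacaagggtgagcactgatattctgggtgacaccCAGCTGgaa
PU.1, Rescue-only: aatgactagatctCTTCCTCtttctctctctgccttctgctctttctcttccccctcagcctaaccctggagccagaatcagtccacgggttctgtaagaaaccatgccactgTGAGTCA
Tmem132e: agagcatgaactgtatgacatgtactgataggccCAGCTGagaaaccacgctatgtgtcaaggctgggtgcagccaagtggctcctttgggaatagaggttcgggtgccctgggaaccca
Xylt1: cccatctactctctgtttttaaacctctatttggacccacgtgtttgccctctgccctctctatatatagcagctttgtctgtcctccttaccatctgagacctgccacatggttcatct
EBF1, WT-only: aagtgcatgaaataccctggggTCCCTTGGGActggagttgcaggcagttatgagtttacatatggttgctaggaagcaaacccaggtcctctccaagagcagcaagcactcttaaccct
TCF, WT-only: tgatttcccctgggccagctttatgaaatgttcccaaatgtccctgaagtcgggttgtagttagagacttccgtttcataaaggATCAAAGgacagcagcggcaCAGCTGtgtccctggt
Second E2A form, WT-only: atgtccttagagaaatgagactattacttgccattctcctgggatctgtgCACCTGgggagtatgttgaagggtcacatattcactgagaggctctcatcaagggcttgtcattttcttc

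Most open chromatin was common to the WT and Rescue preB cells. WT-only peaks were 8.02% of the WT preB list (Wilson 95% interval 7.83 to 8.21) and Rescue-only peaks were 17.9% of the Rescue preB list (17.6 to 18.1). These intervals and all others below treat peaks as independent and cover counting error only. They leave out the spread between mice and libraries and any dependence between neighbouring peaks. Fragments without molecular identifiers are also not independent molecules. With the Rescue list cut to its 76465 highest scores the shares drew together, to 11.2% WT-only and 12.8% Rescue-only, or 8573 and 9762 peaks. When the stage was read from the source name, 9312 peaks were WT-only and 24809 were Rescue-only.

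Unshared peaks were weak peaks. The median −log10 q, the significance of a summit over background, was 6.19 for WT-only and 5.72 for Rescue-only peaks, against 30.6 and 40.4 for the shared peaks of the WT and Rescue lists. The median summit pileup was 18 in both unshared sets, not far above the lowest called pileup of 11. In the highest-scoring 10% of each list 1 peak was unshared, whereas 35.0% were in the lowest-scoring 10% of WT preB and 66.2% in that of Rescue preB. At a −log10 q of at least 10, 979 WT-only and 2968 Rescue-only peaks remained, and at 50 there were 35 and 69.

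**Figure D1:**
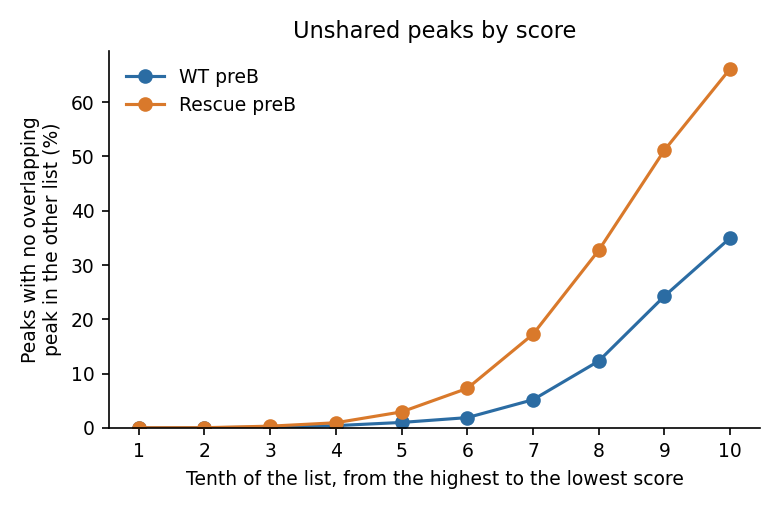
Percent of peaks with no overlapping peak in the other list (vertical axis) in 10 score classes of equal size of the WT preB and Rescue preB lists, ordered from the highest to the lowest score (horizontal axis). Both lines stay near 0 over the highest classes and end at 35.0% for WT preB and 66.2% for Rescue preB.

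Unshared peaks were looked up in the other 5 libraries. Of the WT-only peaks, 60.3% overlapped a peak in WT proB and 32.2% one in Rescue proB. The 3 pre-proB libraries held less of them, with 31.3% for WT, 29.6% for Erg KO and 30.7% for Rescue. Rescue-only peaks had the reverse order for the proB libraries, with 46.7% in WT proB and 61.8% in Rescue proB, and were found in 49.1% to 55.9% of cases in the 3 pre-proB libraries. When the stage was read from the source name, WT proB held 51.1% of the WT-only and 41.7% of the Rescue-only peaks, and the pre-proB libraries of WT and Erg KO held 65.7% and 70.2% of the latter. The shared peaks, looked up from WT preB, reached 91.8% in WT proB and 92.7% in Rescue proB. The split was wider among peaks with a −log10 q of at least 10: 82.4% of the 979 WT-only peaks were in WT proB and 33.5% in Rescue proB, while 56.97% of the 2968 Rescue-only peaks were in WT proB and 87.3% in Rescue proB.

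**Figure D2:**
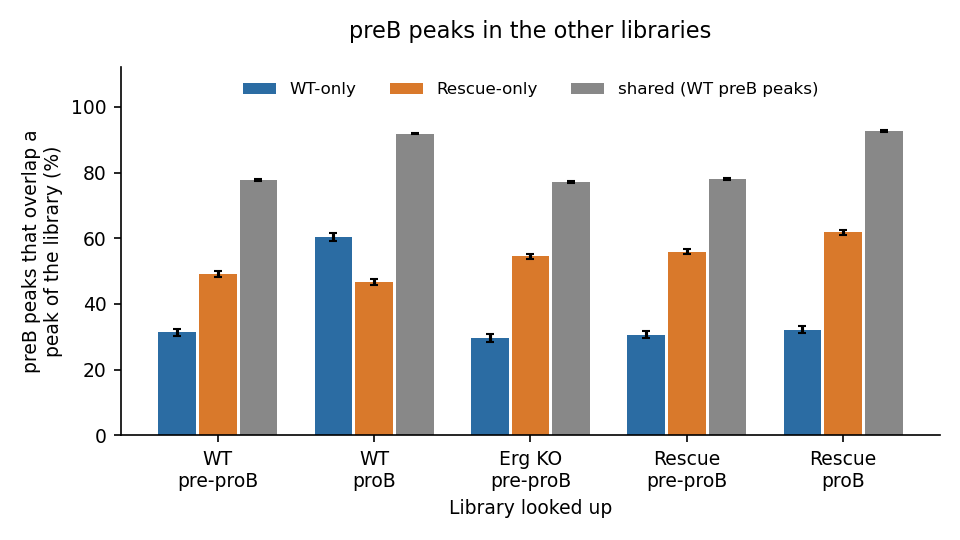
Percent of WT-only, Rescue-only and shared preB peaks (bars, with Wilson 95% intervals) that overlap a peak of each of the other 5 libraries (horizontal axis). WT-only peaks are highest in WT proB, at 60.3%, and Rescue-only peaks are highest in Rescue proB, at 61.8%.

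Patterns were counted over the earlier libraries, of which Erg KO pre-proB, Rescue pre-proB and Rescue proB are Erg-deficient. By this count 1619 WT-only peaks (26.4%) had been open in an earlier WT library and in no earlier Erg-deficient library. Only 871 Rescue-only peaks (5.77%) had that pattern. The share in an earlier Erg-deficient library and in no earlier WT library was 5.84% of WT-only peaks and 12.4% of Rescue-only peaks. A further 1619 WT-only peaks (26.4%) and 2982 Rescue-only peaks (19.7%) were in no other library.

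The comparison was also read along the WT transition from proB to preB. Of 24475 WT proB peaks that WT preB lacked, 28.3% (27.7 to 28.8) overlapped a peak in Rescue preB. Of 8200 WT preB peaks that WT proB lacked, 70.3% (69.3 to 71.3) did, against 94.8% of the 67193 peaks present in both WT lists. With all lists cut to 76465 peaks the shares were 23.6%, 65.0% and 94.0%. The Rescue library titled proB, which is the preB library by source name, held 41.6%, 44.4% and 93.1% of the same 3 sets. Most peaks gained by WT preB cells were therefore found in Rescue preB by title, but not under the other reading.

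Unshared peaks lay away from promoters. Within 1000 bp of a transcription start site (TSS) lay 8.32% of WT-only peaks and 11.1% of Rescue-only peaks, compared with 25.2% of the shared peaks. Introns held 49.97% and 48.38% of the unshared peaks, and intergenic DNA 36.4% and 36.6%. The median distance to the nearest TSS was 26.2 kb for WT-only, 27.1 kb for Rescue-only and 15.4 kb for shared WT peaks.

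The highest-scoring Rescue-only peak lay in an intron of Slit3, which encodes a secreted guidance ligand, with a fold over background of 80.3 and a summit pileup of 388. Among the libraries of the earlier stages, its region had a peak in WT pre-proB, Erg KO pre-proB, Rescue pre-proB and Rescue proB, and none in WT proB. It belonged to a run of 11 consecutive Rescue-only peaks over 574 kb. Myo18b, an unconventional myosin gene, had an intronic Rescue-only peak of fold 31.4 (summit pileup 151) that was also open in both proB libraries and in no pre-proB library. The others by rank were intergenic near Galr1 (fold 30.1) and intronic in Iffo1 (28.5) and Pdzrn3 (26.2). Of these 5 peaks all were present in Rescue proB, and those at Slit3 and Iffo1 were missing from WT proB.

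On the WT side the highest peak lay on chromosome 18 in an intron 57919 bp from AC117239.2 (fold 61.6), and a further peak of that run had a fold of 25.6. The intronic Tmem132e peak (chr11:82410145-82411202) had a fold of 46.0 and a summit pileup of 209, and a peak 72719 bp from the start of the chemokine gene Ccl1 had a fold of 22.6. The Tmem132e region was open in WT pre-proB and WT proB and not in Erg KO pre-proB, Rescue pre-proB or Rescue proB. The peak near Oxa1l, a mitochondrial insertase gene, had a fold of 33.5 and was missing only from Rescue pre-proB among the other libraries, so it was shared when the stage was read from the source name. The other 4 WT-only peaks stayed unshared under that reading, and all 5 were present in WT proB.

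Some unshared peaks came in runs. Uninterrupted stretches of at least 4 Rescue-only peaks numbered 245, and those of WT-only peaks 31. They held 1174 of the 15100 Rescue-only peaks and 150 of the 6132 WT-only peaks, so most unshared peaks lay outside such runs. The larger set can form more runs by its size, and the difference in number was not tested. The longest Rescue-only run had 14 peaks over 350.1 kb among the Tcra variable segments, and the longest WT-only run had 10 peaks over 65.5 kb at Commd10 on chromosome 18. Tmem132e followed with 9 WT-only peaks over 140.7 kb, a span with 12 peaks in WT proB and 3 in Rescue proB. Upstream of Xylt1, a xylosyltransferase gene that starts proteoglycan chains, 7 WT-only peaks spanned 179.9 kb. In that span WT proB had 6 peaks, and WT pre-proB, Erg KO pre-proB, Rescue pre-proB and Rescue proB had 0.

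Promoters differed at few genes. Of 21755 coding genes, 13469 had a promoter peak in WT preB, 13849 in Rescue preB and 13348 in both. A promoter peak was in WT preB only at 121 genes (0.556%) and in Rescue preB only at 501 (2.3%). The Rescue count was 865 when the stage was read from the source name, and the WT count was 183 at equal list length. The median −log10 q of these promoter peaks was 5.48 and 7.15, against 286 and 329 where both lists had one. The fixed window decided part of this. Among the genes present in 1 list only, the promoter peak still overlapped a peak of the other list, which ended outside the window, at 6 and 25 genes. These included the 8 genes with the highest Rescue scores (Klrb1a, Zscan10, Tmsb15b2, Tmem79, Myo15b, Tmem253, Prelid1 and Clec9a) and, on the WT side, Hist1h1d, Ccr2 and Hhipl2.

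Without those cases 115 WT-only and 476 Rescue-only promoter genes were left, 14 and 148 of them with a −log10 q of at least 10. The WT-only ones with the highest scores were all weak. Slc7a9, an amino acid transporter gene, had a fold of 6.79, Kcnf1 6.58, 4930469K13Rik 6.36 and Foxi1 6.36, and Pcdhga2 on chromosome 18 had 6.79. The highest on the Rescue side, named after their values were seen, were Ptchd1 (fold 22.5), Dnah7c (19.0), Myo18b (17.9) and Tmeff1 (16.5). The Myo18b promoter peak was otherwise present only in Rescue proB, and the other 3 regions had a peak in all 5 other libraries.

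The gene lists for B-cell development had a promoter peak at the same genes in both genotypes. Over all coding genes a promoter peak was in WT preB only at 0.556% and in Rescue preB only at 2.3%. Lists of this size would thus hold few or no such genes. Pre-BCR and BCR components had a promoter peak at 20 of 20 genes in each list, B-lineage transcription factors at 28 of 28, IL-7 receptor pathway genes at 14 of 15, V(D)J recombination and end joining genes at 10 of 12, small preB and later B-cell genes at 19 of 20 and cell cycle genes at 16 of 16. Genes of the regulatory network downstream of Erg, chosen from the study itself and so no independent list, had promoter peaks at 18 of 18 in both. At the Rag1 promoter the fold was 64.4 in WT preB and 67.9 in Rescue preB, and at Rag2 it was 34.4 and 34.7. Ebf1, the factor that specifies the B lineage, had 51.1 and 43.5, and Pax5, which commits cells to it, had 40.3 and 45.8. Igll1, encoding lambda5 of the surrogate light chain, had 81.3 and 86.7. These promoters differed little between the libraries.

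The fold of shared promoter peaks was also expressed as the log2 ratio of Rescue over WT, less the median of all shared pairs, and is called centred below. Over the 13348 genes with a promoter peak in both lists the median was 0.01, with 210 genes above 1 and 29 below -1. Pre-BCR and BCR components had a median of -0.21 over 20 genes. The lowest of them was Vpreb3, which encodes a surrogate light chain relative, with a fold of 46.7 in WT preB and 23.9 in Rescue preB (centred log2 -1.07). Vpreb1 had folds of 21.04 and 16.92, and Vpreb2 7.01 and 5.16. B-lineage transcription factors had a median of 0.00 and ranged from -0.33 at Ebf1 to 0.27 at Erg, where the folds were 30.7 and 39.6.

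Distal peaks of the B-lineage genes differed in both directions. Of the peaks whose nearest coding TSS was a network gene, 41 of 296 in WT preB were WT-only (13.9%, against 8.01% for all coding genes) and 51 of 300 in Rescue preB were Rescue-only (17.0%, against 17.9%). At equal list length 52 were WT-only (17.6%, against 11.2% for all coding genes) and 29 Rescue-only, so the larger side changed. Over all coding genes this cut gave 8560 WT-only and 9752 Rescue-only peaks, and Rescue-only stayed the larger side. Lef1, a nuclear effector of Wnt signalling with a role in proB growth, had 28 WT and 24 Rescue peaks, of which 8 were WT-only with folds from 3.29 to 12.1. All 8 were present in WT proB and 0 in Rescue proB. Pax5 had 5 WT-only peaks and 2 Rescue-only peaks, with a highest fold of 3.95. Cdkn2a, a cell cycle inhibitor locus, had 5 WT-only peaks and 1 Rescue-only peak, and all 5 were present in WT proB. Hmgb1, whose product assists Rag cleavage, had 5 and 0, but all 5 were present in Rescue proB and 2 in WT proB, so by source name they were shared.

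Other genes had more Rescue-only than WT-only peaks, as did the lists as a whole (17.9% Rescue-only against 8.01% WT-only over coding genes). Bach2, a repressor that restrains B-cell differentiation, had 48 WT and 55 Rescue peaks, with 12 WT-only and 21 Rescue-only, and 15 and 8 at equal list length, where the order turned. Myc, a growth regulator, had 4 WT-only and 12 Rescue-only peaks (5 and 11 at equal length). Bcl2, an inhibitor of apoptosis, had 1 and 8 (2 and 3 at equal length). All of the Myc peaks were weak, with folds of at most 4.95, and 3 of the 12 Rescue-only ones were in Rescue proB. At Bcl2, 6 of the 8 Rescue-only peaks were in Rescue proB and 0 in WT proB, and the highest fold was 8.25.

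Stem and progenitor genes had more open chromatin in Rescue preB. A promoter peak was present at 13 of 17 genes in WT preB and at 15 in Rescue preB (14 when the stage was read from the source name). The additional genes were Cd34, the progenitor surface glycoprotein, with a promoter fold of 7.84 and a −log10 q of 22.1, and Ly6a (Sca-1), with a fold of 3.71. The Cd34 promoter region was open in all 5 other libraries and that of Ly6a in none. Of the 218 Rescue preB peaks nearest to these genes, 62 were Rescue-only (28.4%, against 17.9% for all coding genes), and of the 182 WT preB peaks 19 were WT-only (10.4%, against 8.01%). At equal list length 39 were Rescue-only and 24 WT-only (13.2%, against 11.2% for all coding genes). Over all coding genes this cut gave 9752 Rescue-only and 8560 WT-only peaks.

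The difference was uneven among these genes. Mecom, a zinc finger factor of stem cells, had 4 peaks in WT preB and 10 in Rescue preB, 7 of them Rescue-only with folds from 3.30 to 11.8. Hlf, a bZIP factor of stem cells, likewise had 4 and 10 peaks with 6 Rescue-only, all of which were also present in WT proB and WT pre-proB. Of the Mecom peaks, all 7 were in Rescue proB and 5 in WT proB. Sox4, needed for early B-cell survival, had 55 and 68 peaks with 5 WT-only and 18 Rescue-only, and the homeobox gene Meis1 had 17 and 19 with 1 and 7. Kit and Procr had no unshared peak.

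Promoter folds moved the same way for the stem and progenitor list. The median centred log2 over its 13 genes with a promoter peak in both lists was 0.45, from -0.01 at Lmo2 to 1.22 at Mecom. At Mecom the fold was 29.2 in WT preB and 72.6 in Rescue preB, at Hlf 30.2 and 57.8, at Hoxa9 10.96 and 23.11, and at Meis1 53.9 and 79.0. Flt3, the receptor of early lymphoid progenitors, had 115 and 130.

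**Figure D3:**
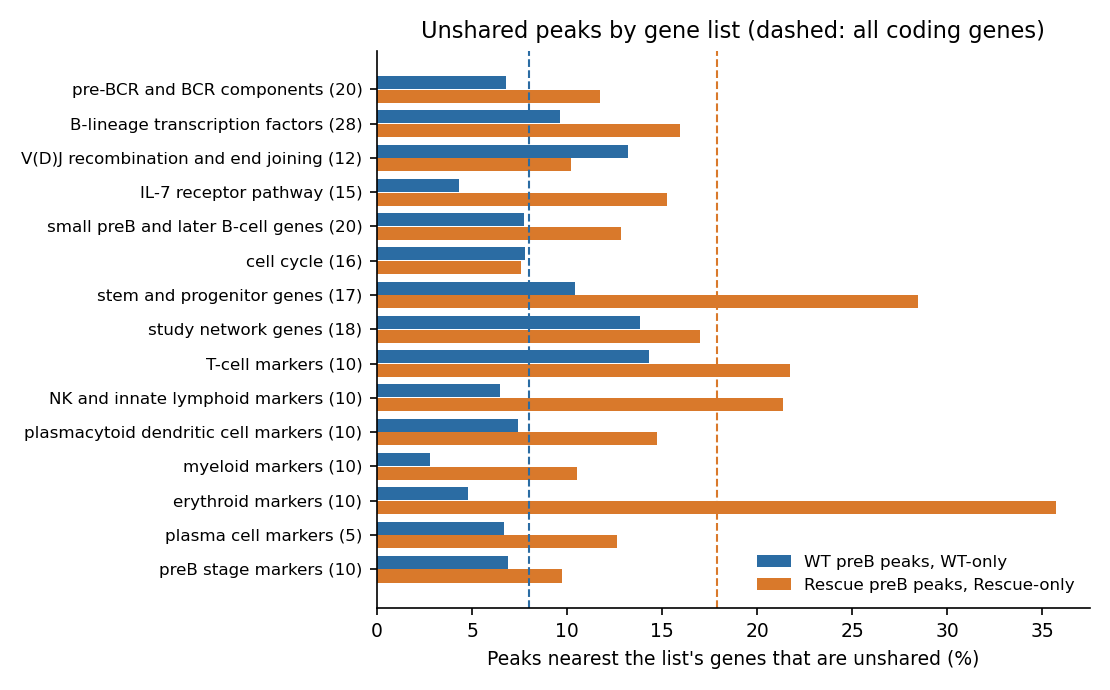
Percent of the peaks nearest to the genes of each list that were unshared (horizontal axis), for WT preB and Rescue preB peaks, with the number of genes in parentheses and all coding genes as dashed lines. Stem and progenitor genes stand at 28.4% Rescue-only and network genes at 13.9% WT-only, against dashed lines at 17.9% and 8.01%, and the erythroid bar rests on 28 peaks.

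Markers of other cells were looked at in the same way. T-cell markers had promoter peaks at 3 of 10 genes in both lists and myeloid markers at 4 of 10 in both. NK and innate lymphoid markers had them at 6 genes in WT preB and 5 in Rescue preB, plasmacytoid dendritic cell markers at 7 and 8, erythroid markers at 4 and 5, and plasma cell markers at 4 of 5 in both. The defining T-cell genes Cd3e, Cd3d and Cd3g, the myeloid genes Mpo, Elane and S100a8, and the erythroid genes Hba-a1, Gata1 and Alas2 had no promoter peak in either list. The genes that differed were Tbx21 (T-bet, WT preB only, fold 4.16), Tlr7 (Rescue preB only, 6.396) and Ank1 (a red cell membrane skeleton gene, Rescue preB only, 3.51). Of the erythroid peaks, 10 of 28 were Rescue-only. The 4 myeloid promoters present in both lists had a median centred log2 of 0.37, from -0.48 at Cebpe to 1.20 at Cebpa, and the median centred log2 of the 5 NK and innate lymphoid promoters was 0.60. The part of other cells in the stem and progenitor result was not tested. When the stage was read from the source name, NK and innate lymphoid promoters numbered 9 and T-cell promoters 5 in the Rescue library.

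By nearest TSS, 26.8% of coding genes had more Rescue-only than WT-only peaks and 9.86% had more WT-only peaks. An excess of at least 5 Rescue-only peaks was found at 457 genes and of at least 5 WT-only peaks at 34, or 179 and 97 with lists of equal length. Among the genes with the largest Rescue excess were Adam6a (56), the tubulin modifier Ttll7 (38), Adgrl2 (34), Zfp386 (32), Lrrn3 (30), the co-receptor Nrp1 (29), Olfr1507 (23), Dad1 (20) and the adhesion gene Tns1 (19). Adam6a and Zfp386 lie in or beside Igh, and Olfr1507 and Dad1 in or beside Tcra, so these 4 counts were receptor locus peaks. Counted instead over the gene body and 10 kb on either side, Rescue-only peaks numbered 17 at Tns1, 15 at Nrp1, 5 at Ttll7, 3 at Adgrl2 and 1 at Lrrn3. On the WT side Xylt1 led with an excess of 15, followed by Nucb2 (14), AC117239.2 (13), Tmem132e (13), Ext1 (11), Phlda1 (10), and Sox9, Zmat4, Rapgef5 and Tas2r134 with 9 each. By gene body and 10 kb, WT-only peaks numbered 11 at Zmat4, 10 at Rapgef5, 8 at Tmem132e, 8 at Ext1 and 4 at Xylt1, with 1 at AC117239.2 and at Phlda1 and 0 at Nucb2, Sox9 and Tas2r134.

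The antigen receptor loci held the largest blocks of unshared peaks. The heavy chain locus had 147 peaks in WT preB and 243 in Rescue preB, and 11 were WT-only and 111 Rescue-only, where all peaks had shares of 8.02% and 17.9%. The WT-only count was thus near the share of all peaks. These peaks covered 87.6 kb in WT preB and 143 kb in Rescue preB, with a median fold of 5.92 and 5.57. At equal list length the locus held 147 and 205, and read from the source name the Rescue library had 219. With both lists cut to 38232 peaks the difference was 24. In the variable part, 130 and 213 peaks were counted, and 50 and 88 of 185 variable segments had one. Of 118 shared pairs in the variable part, 99 had a centred log2 above 0, with a median of 0.41.

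The diversity segments had 3 peaks in WT preB and 11 in Rescue preB, or 10 in the Rescue library with preB as source name. The strongest Rescue-only peak there covered DQ52, whose sequence stands above, with a fold of 18.2. All 3 pre-proB libraries and Rescue proB had a peak there, and WT proB had none. The other strong Rescue-only peak, near Ighd3-2, had a fold of 15.3 and the same pattern. A peak 20964 bp from Ighd1-1 was shared, with a fold of 10.5 in WT preB and 27.0 in Rescue preB. The intronic enhancer area between the joining segments and the constant genes was open in both libraries at the same summit, with a fold of 74.5 in WT preB and 69.1 in Rescue preB. In Rescue preB this area was a single peak of 12.9 kb, which in WT preB was split into 2 peaks.

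At the kappa locus the total was less different, with 228 peaks in WT preB and 255 in Rescue preB, 20 WT-only and 52 Rescue-only, both near the shares of all peaks (8.02% and 17.9%). The locus divided by distance. Within 1 Mb of the joining segments WT preB had 77 peaks and Rescue preB 65, and 51 of 60 shared pairs had a centred log2 below 0, with a median of -0.57. Beyond 1 Mb WT preB had 149 and Rescue preB 188, and 104 of 136 pairs were above 0, with a median of 0.25. Variable segments with a peak numbered 109 in WT preB and 107 in Rescue preB, of 160. The J and constant part had 2 peaks in both. With the source name the Rescue library had 4 peaks fewer than WT preB over the whole locus, 28 fewer within 1 Mb and 25 more beyond it. With both lists cut to 38232 peaks the Rescue list had 11 fewer over the whole locus, 16 fewer within 1 Mb and 5 more beyond it.

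**Figure D4:**
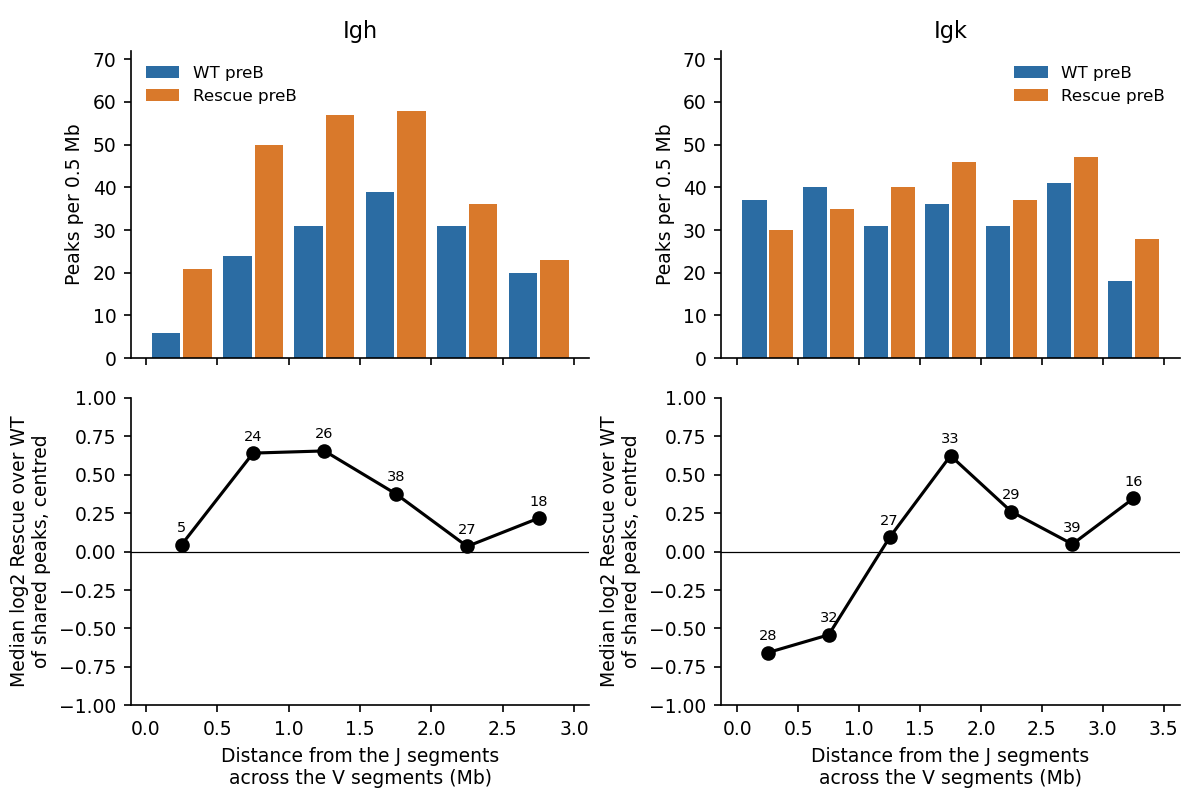
Peaks per 0.5 Mb (upper panels) and median centred log2 Rescue over WT of shared peaks (lower panels, number of pairs above each point) by distance from the joining segments of Igh and Igk. Rescue preB has more peaks in every Igh bin (at equal list length not in the 2 bins beyond 2 Mb, with 31 against 30 and 20 against 19), while in Igk the 2 bins nearest to the joining segments have more WT preB peaks and medians below 0.

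T-cell receptor loci also differed. Tcra and Tcrd held 14 peaks in WT preB and 59 in Rescue preB, of which 45 were Rescue-only and 0 WT-only, and the source-name reading gave 57. With both lists cut to 38232 peaks the Rescue list had 9 more. All 14 shared pairs had a centred log2 above 0. WT proB had 39 peaks there and WT pre-proB 61, so the WT count was lowest at preB. Rescue proB had 57, Rescue pre-proB 90 and Erg KO pre-proB 92, each above the WT library titled with that stage. The count was thus higher without Erg at the earlier stages too, by title. Tcrb had 15 and 20 peaks, Tcrg 6 and 8, and the lambda light chain locus 18 and 16. Recombination removes the DNA between joined segments, and the knock-in changes the joining region of Igh. In a peak count fewer open copies and fewer copies of the DNA cannot be told apart.

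Shared peaks were compared by their fold. In 68308 pairs the median log2 of Rescue over WT was 0.10 and the SD was 0.43, and the folds correlated across peaks with a Spearman rho of 0.927, a description over peaks of 2 libraries. Of 39363 pairs with a fold of at least 10 in either list, 1260 (3.2%) had a centred log2 above 1 and 550 (1.4%) below -1. The largest in Rescue preB was an intronic peak of Slc44a5 (nearest TSS Lhx8), with a fold of 9.64 in WT preB and 78.8 in Rescue preB. Lhfpl2 followed with 5.04 and 40.2, Zfhx3 with 3.51 and 26.8, and the promoters of Abca8b with 4.82 and 36.1 and of Sntg2 with 4.82 and 35.7. Within the Mecom gene a further shared peak had folds of 4.16 and 25.995.

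The largest in WT preB had a fold of 95.3 in WT preB and 4.54 in Rescue preB and lay beside the chromosome 18 run near AC117239.2. An intergenic peak 92886 bp from Aipl1 had 41.9 and 3.09, an exonic peak 41528 bp from Sertad4 42.3 and 3.51, an intronic peak 97276 bp from Cfap61 65.5 and 6.60, and a peak 407663 bp from Zfp536 35.9 and 3.92. These 5 regions were called in both lists, so the count of unshared peaks did not contain them.

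The DNA of the unshared distal peaks differed in its short patterns. The 200 bp around each summit were searched on both strands for 15 patterns, in 5622 WT-only and 13426 Rescue-only distal peaks. The EBF1 palindrome was in 2.77% of WT-only and 1.21% of Rescue-only peaks, a difference of -1.56 percentage points (95% interval -2.05 to -1.12), against 2.09% of all WT distal peaks. The E-box CAGGTG was in 23.1% and 16.4% (-6.69, -7.97 to -5.44), against 21.7% of all WT distal peaks. CTTTGAT, bound by TCF and LEF factors, was in 4.48% and 2.32% (-2.17), against 2.81%. The octamer part ATGCAAA was in 6.97% and 4.99% (-1.98), against 6.12%. The CTCF core was in 8.56% and 7.02% (-1.54), both below the 10.8% of all WT distal peaks.

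Other patterns were more frequent in Rescue-only than in WT-only peaks. The PU.1 site GAGGAAG was in 14.5% of WT-only and 17.2% of Rescue-only peaks, a difference of 2.67 points (1.54 to 3.78), against 16.9% of all WT distal peaks. The IRF repeat was in 3.09% and 4.49% (1.40, 0.80 to 1.95), against 3.97%. The RUNX site TGTGGTT was in 8.32% and 9.53% (1.20, 0.31 to 2.06), against 9.21%. The NF-kB pattern was in 8.89% and 9.86%, both below the 10.1% of all WT distal peaks. Its difference was 0.97, with an interval from 0.05 to 1.85. The ETS letters CCGGAAG, which Erg and related factors can bind, were in 1.58% and 1.30%, with an interval from -0.68 to 0.08, and in 1.93% of all WT distal peaks. The interval also included 0 for the E-box CAGCTG (-2.34 to 0.07), which was in 21.4% of all WT distal peaks. It did so for the FOXO letters TGTTTAC (3.02% of all WT distal peaks), the AP-1 letters TGACTCA (4.39%), the motif of GATA factors, AGATAAG (2.15%), and the MEF2 letters TATTTAT (3.93%). A match is a run of letters and not a bound site, and a base can belong to more than 1 pattern.

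**Figure D5:**
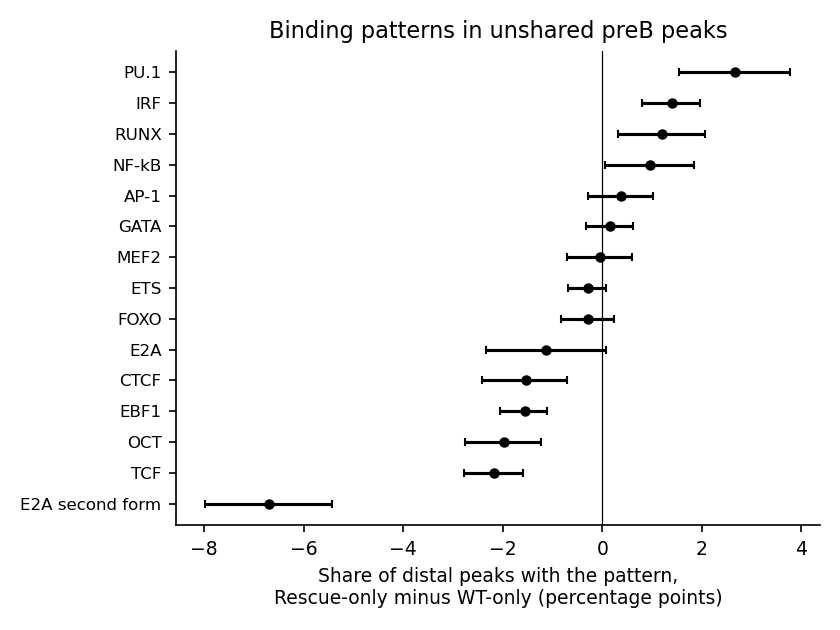
Difference in the share of distal peaks that hold each pattern, Rescue-only minus WT-only, in percentage points (horizontal axis), with 95% intervals that cover counting error only. The second E2A form, CAGGTG, stands farthest to the left at -6.69 and PU.1 farthest to the right at 2.67.

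WT-only peaks with a pattern were then looked up in the other libraries. Of the 156 WT-only peaks with the EBF1 palindrome, 81.4% (74.6 to 86.7) were present in WT proB, compared with 59.3% of those without it. In the 3 pre-proB libraries the share ran the other way, with 8.33% found in the Erg KO library against 29.7% of those without the palindrome. In Rescue proB the share was 31.4% both with and without it. With a TCF match 72.2% of 252 peaks were in WT proB, against 59.3% without. With the ETS letters 85.4% of 89 peaks were in WT proB and 42.7% in Rescue proB, against 59.5% and 31.2% without. This share in WT proB was the highest of the 15 patterns. Rescue-only peaks went the same way for ETS and EBF1. With the ETS letters 69.7% of 175 were in WT proB, against 44.2% without, again the highest of the 15 patterns. With the EBF1 palindrome 18.4% of 163 were in the Erg KO library, against 53.8% without. Among Rescue-only peaks, 63.5% of the 2303 with a PU.1 match were open in the Erg KO library and 58.1% in WT pre-proB. Without the match the shares were 51.3% and 46.3%, while in WT proB they were 44.3% with it and 44.6% without. PU.1 was not alone in this. The shares in Erg KO and WT pre-proB were 68.0% and 62.8% with a RUNX match, and 64.3% and 59.5% with an IRF match. WT-only peaks with a PU.1 match went the same way. Of these 31.6% were in Erg KO and 36.7% in WT pre-proB, against 28.7% and 29.9% without.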

How the data were processed

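ATAC-seq peak lists of 7 mouse libraries were used, 1 per group. According to the methods and the submitters' processing notes, the authors converted reads with CASAVA 1.8.2, aligned them to mm10 with Bowtie2, and called peaks per library with MACS2, with Picard also named. For other versions, read shift, duplicate handling and any control, no statement was found. The methods name sonication and the labels Tn5 tagmentation. The deposited score equals the whole part of 10 × −log10 q. The deposited fold is a ratio of summit to background pileup after 1 is added to each. The deposited −log10 p and −log10 q belong to the summit. Folds fell on whole steps (tolerance 0.02) in 100% of peaks, which gave the pileups. Peak starts, ends and summit offsets were deposited in bp.

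Lists were intersected in Python 3.11.15 (pandas 2.3.3), and the overlap code was tested on simulated data and checked against bedtools 2.31.1 on the deposited lists. Genes and TSS came from GENCODE M21 basic, sequences from RefSeq GRCm38.p6, with chromosomes matched by name and length. Lists cut by length kept the highest scores. Shared pairs were mutually best overlaps. Wilson intervals, or Newcombe intervals for differences, were at 95%. No test was run, since each group had 1 library. Members and the 15 gene lists were chosen with earlier results of these data known. Genes were named by rule: the 10 with the largest excess, the 5 highest unshared peaks, the 8 highest promoters and the 5 largest shared differences in each direction, list genes with a promoter in 1 list only, receptor loci and Erg. Some genes that these rules select are not reported here.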

Additional observations from a re-analysis of the deposited data

Results flagged for a closer look

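A total of 3 loci had an opposite sign of Rescue minus WT at the preB and proB stages, with 1 library in each group, and the difference between stages was not tested. For the lambda light chain locus the difference was -2 peaks at preB (18 in WT, 16 in Rescue), while at proB WT had 12 and Rescue 14. For Tcrb it was 5 at preB (15 and 20), while proB had 38 and 35. For the Igh variable segments nearest to the diversity segments, ahead of the Ighv1 block, it was 27 at preB (24 and 51), while proB had 42 and 37. The proB and preB titles of the Rescue libraries disagree with their source names.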

How the results depend on the processing

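Across 116 results, 404 values were recomputed under other settings: 283 stayed within the tolerance (1.5 times for counts), 117 moved beyond it with the same sign and 4 reversed. No paired analysis was possible because each group had 1 library and the labels carry no replicate numbers, and leaving out a replicate was not possible for the same reason. Depth limits weak peaks, since the lowest called summit held 11 fragments in both lists, and 1 library per group and the conflicting stage labels limit every count. The cause of the shifts was not tested, beyond what each setting does by construction.

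Lists cut to the length of the shorter gave 9762 Rescue-only peaks, of which 55.0% were found in Rescue proB, while 47.6% of WT-only peaks were found in WT proB. They also gave 183 genes with a promoter in WT preB only, 3 list genes with a promoter in 1 list only, excesses at 179 genes (Rescue) and 97 (WT), locus differences of 58 at Igh and 12 at Igk, and pattern differences of 0.66 for CAGCTG and -0.069 for GATA, both reversed. Lists of 38232 peaks gave 3477 WT-only and 3686 Rescue-only peaks, found in WT proB and Rescue proB at 46.4% and 58.8%, promoter shares of 10.7% and 17.1%, 3 list genes, and locus differences of 24 at Igh, -11 at Igk (reversed) and 9 at Tcra and Tcrd. A reciprocal overlap of 50% gave 11209 WT-only peaks, shares of 39.7% in WT proB and 51.6% in Rescue proB, and promoter shares of 15.7% and 13.7%. A −log10 q of at least 10 gave 979 and 2968 peaks, with 82.4% and 87.3% found in the proB list of the same genotype, a look-up added after seeing the data. Reading the stage from the source name gave 9312 and 24809 peaks, 51.1% of WT-only peaks in WT proB, a WT-only promoter share of 7.13%, 865 Rescue-only promoter genes, 12 list genes and an Igk difference of -4 (reversed). A promoter window of 2500 bp gave promoter shares of 17.5% and 20.9%, gene bodies with 10 kb gave 269 genes with a Rescue excess, and 400 bp windows gave -2.19 for EBF1 and -2.95 for TCF. Counting only promoter peaks without any overlap was also added after seeing the data and stayed within tolerance.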

Other observations

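Variable segments with a peak were also counted by family. In Igh, the Ighv5 family, which lies near the diversity segments, had a peak at 0 of 22 segments in WT preB and 7 in Rescue preB, while WT proB had 5 and Rescue proB 3. The large Ighv1 family had a peak at 25 of 93 segments in WT preB and 41 in Rescue preB, with 17 only in Rescue and 1 only in WT. In Igk, Igkv3 had a peak at 10 of 13 segments in WT preB and 6 in Rescue preB, and Igkv4 at 24 and 26 of 33. With 1 library per group these counts were not tested.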
